A study of Mus musculus with 15 samples.

Results

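miR-375-3p is the arm of the mouse microRNA (miRNA) gene Mir375 that was measured here in differentiating epiblast stem cells. It was found by the array's own annotation: all spots named mmu-miR-375-3p were taken on each of 15 single-colour Agilent mouse miRNA arrays. That gave 1 of the 1122 mouse miRNAs on the array, carried by 2 probes with 40 spots per array in all. miR-375-3p was selected on its levels in these samples, being bright in treated cells and not above background in the others, so those levels and differences are given as a description and carry no test.

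The cells were epiblast stem cells (EpiSC), pluripotent cells of the post-implantation type, derived from Pitx3-GFP mice, in which a fluorescent reporter marks expression of Pitx3, a transcription factor of midbrain dopaminergic neurons. The groups, with 3 arrays each, were treated cells at day 9 and at day 14, which received SHH and FGF8 from day 5 of a differentiation of 14 days and are labelled as dopaminergic (DA) cells. They were set against control cells at day 9 and at day 14, which received no morphogen, and against cells at day 5, taken before the morphogens. All groups share the Pitx3-GFP background. No sorting on GFP is mentioned in the labels, which also do not say whether the replicates were separate cultures, so every p-value below measures the spread between these samples only. In such bulk samples fewer cells of a type and less RNA per cell cannot be told apart.

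miRNAs are short RNAs cut from a hairpin transcript, and they lower the output of messenger RNAs that pair with their seed, bases 2 to 8. miR-375 is best known from the islets of the pancreas, where it restrains insulin secretion and is needed for normal endocrine cell mass in mice, and it is also found in pituitary and gut endocrine cells. In the nervous system it is known to repress the neuronal RNA-binding protein HuD, and in human stem cell cultures it has been described in spinal motor neuron progenitors.

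The Mir375 hairpin is shown first because both arms measured on the array come from it. In RefSeq's table (build GRCm38.p6) it has 64 bases, 67.2% of them G or C, and lies at chr1:74900658-74900721 on the minus strand. Capitals mark miR-375-5p, the opposite arm, which occupies positions 5 to 26 of the hairpin.
Mir375 hairpin: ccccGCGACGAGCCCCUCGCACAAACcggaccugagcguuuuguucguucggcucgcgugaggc
mmu-miR-375-5p: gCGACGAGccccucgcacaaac
In the second line the capitals mark the seed of miR-375-5p. In the same annotation 10 other genes lie within 100 kb of Mir375, 7 of them protein coding, and 0 are other miRNA genes. The coding neighbours on one side are Wnt10a and Cdk5r2, then Fev, a transcription factor of serotonergic neurons, and Cryba2, a lens crystallin gene. On the other side lie Cfap65, Ihh, which encodes a ligand of the hedgehog pathway that SHH also uses, and Nhej1. Only the miRNAs of this region were measured, so the neighbours have no values.

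Signal was read as background-subtracted spot intensity. In treated day 9 cells the brighter probe of miR-375-3p, A_54_P4392, had mean signals of 155, 205.7 and 144 intensity units over its 20 spots in replicates 1, 2 and 3. In treated day 14 cells it had 138.4, 140 and 104. On the 9 control and day 5 arrays the same probe lay between -0.640 and 1.74. The 6 treated arrays were thus all far above the other 9, and the treated day 9 arrays did not overlap the treated day 14 arrays.

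The second probe, A_54_P1511, gave the same order of arrays by group. In treated day 9 cells its signals were 112, 135 and 97.4, and those of treated day 14 cells were 92.8, 91.3 and 71.3, against -1.08 to 1.17 on the control and day 5 arrays. Within a treated array the 20 spots of a probe varied little, with a coefficient of variation of 4.31% to 12.9% for A_54_P4392 and 3.01% to 9.54% for A_54_P1511.

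At the level of single spots the separation was complete. The scanner software marked 240 of 240 miR-375-3p spots on treated arrays as well above background, and 0 of 360 on control and day 5 arrays. The treated spots had a lowest signal of 50.4, a median of 123 and a highest of 226, and the other spots ran from -6.08 to 8.02 with a median of 0.156. Outlier spots, left out of the means, numbered 10 on the treated arrays and 12 on the others.

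**Figure D1:**
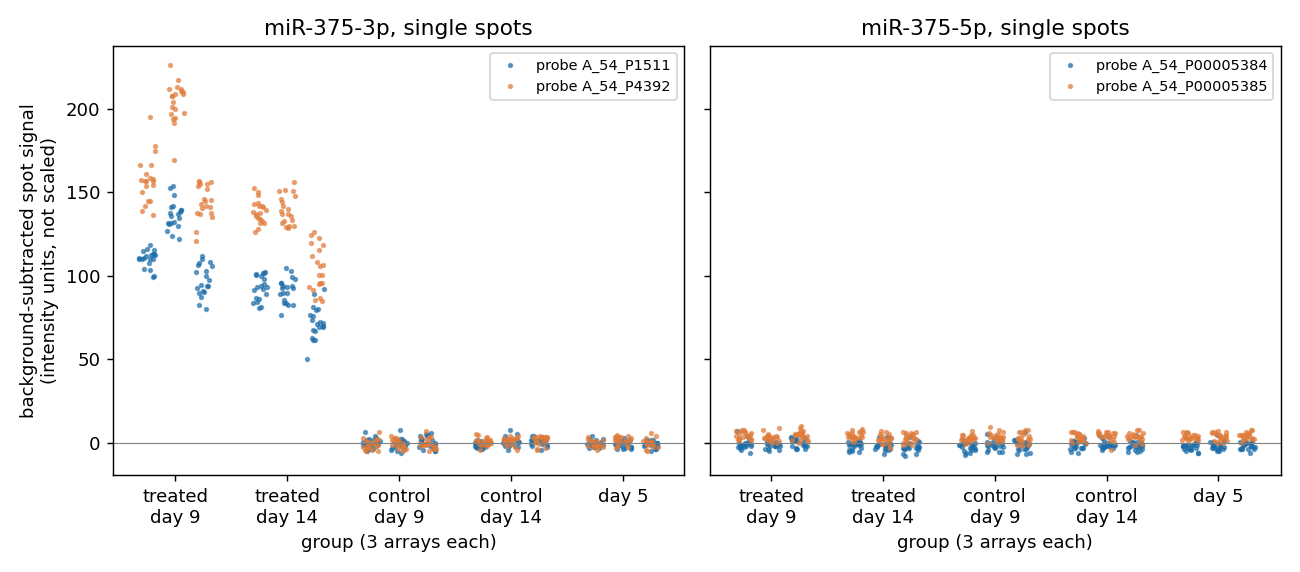
Background-subtracted signal (intensity units, linear axis, not scaled) of single spots of miR-375-3p (left panel) and miR-375-5p (right panel) on 3 arrays per group, coloured by probe. The miR-375-3p spots of treated cells lie between 50.4 and 226 and those of the control and day 5 arrays between -6.08 and 8.02, while miR-375-5p stays near 0 in all groups.

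The dim spots were set against the negative-control spots of the same arrays. Of the 360 miR-375-3p spots on control and day 5 arrays, 326 (90.6%) lay inside the central 95% of their own array's negative controls. The share was lowest in control day 14 cells, at 85.0% in replicate 2 and 80.0% in replicate 3. On these arrays the median miR-375-3p spot was at 1.31 and 1.70 intensity units, and the median negative-control spot at -0.925 and -1.001. None of these spots was marked as above background, so no level is given for control or day 5 cells, only an upper limit. The scanner software's own gene call was the same, with miR-375-3p detected on all 6 treated arrays and on 0 of the other 9.

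The opposite arm was not seen. miR-375-5p has 2 probes, A_54_P00005384 and A_54_P00005385, and 0 of its 240 spots on treated arrays and 0 of its 360 on the others were above background. Its probe means over the 15 arrays ran from -2.46 to 0.136 and from 2.41 to 4.95 intensity units, with no gap between treated and other arrays. A probe's brightness also depends on its sequence, so the signals of the 2 arms are not compared.

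For comparison between arrays each probe's signal was divided by the 75th percentile of the 353 mouse probes above background on all 15 arrays and put on the log2 scale, and A_54_P4392, the brighter probe, stood for miR-375-3p. The scaled log2 signal was -0.48, -0.49 and -0.62 in treated day 9 cells, a mean of -0.53 ± 0.08 (SD, n = 3). In treated day 14 cells it was -1.19, -1.13 and -1.40, a mean of -1.24 ± 0.14 (SD, n = 3). On all control and day 5 arrays it was at the common floor of -4.27, where values have no order. The order of the levels was therefore treated day 9, then treated day 14, then the other 3 groups, which cannot be ranked.

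**Figure D2:**
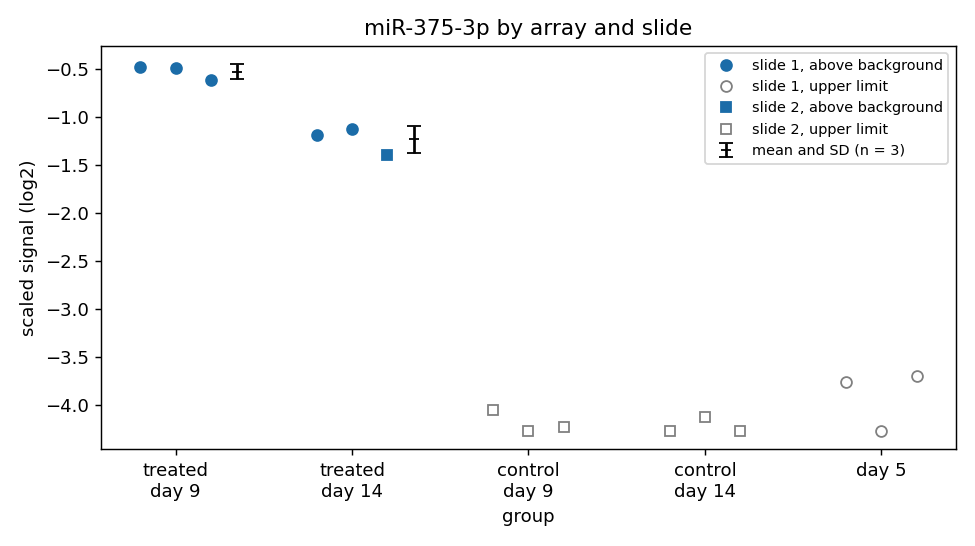
Scaled log2 signal of miR-375-3p (probe A_54_P4392) by group on the y axis, with 1 point per array; filled points are above background, open points are upper limits set by the lowest signal above background on that array, circles are slide 1 and squares slide 2, and bars show mean and SD (n = 3). Treated arrays lie between -1.40 and -0.48, on both slides, and all upper limits lie below them.

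At day 9 miR-375-3p was at least 12.6-fold higher in treated than in control cells, a log2 difference of at least 3.65. At day 14 it was at least 7.90-fold higher in treated than in control cells (at least 2.98 on the log2 scale). Against the cells of day 5 it was at least 10.4-fold higher in treated cells at day 9 and at least 6.38-fold higher at day 14. "At least" is used because the dim group has no measured level: on each dim array the lowest signal of any probe above background there, or the floor if higher, took the place of a level, and the treated mean was set against the mean of these. These limits move with the setting chosen, and a floor 4 times higher lowered the log2 limits to 1.74 at day 9 and 1.03 at day 14. With a model-based background correction (normexp) they were 1.68 and 1.15.

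The arrays lie on 2 slides, and at day 9 slide and treatment cannot be told apart, since the 3 treated day 9 arrays are on slide 1 and the 3 control day 9 arrays on slide 2. Other pairs of groups share a slide. On slide 1, treated day 9 cells were at least 10.4-fold above day 5 cells, with 3 arrays each, and treated day 14 replicates 1 and 2 were at least 6.74-fold above the day 5 cells. On slide 2, treated day 14 replicate 3 was at least 7.08-fold above the 3 control day 14 arrays and at least 6.90-fold above the 3 control day 9 arrays. Slide 1 holds 0 control arrays, so the excess there was over day 5 cells only. On slide 2 the excess over control cells rests on 1 treated array. With slide as a block in the fit the log2 limits were 3.41 at day 9 and 2.82 at day 14. Treated day 14 is the only group with arrays on both slides, so the slide term rests on its replicate 3 against replicates 1 and 2. The day 14 value is therefore that of replicate 3 on slide 2 and no separate check. This holds wherever the block is used below.

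Within treated cells the level was lower at day 14. The log2 difference of treated day 14 against treated day 9 was -0.70, or 0.614 of the day 9 level. The 3 arrays of each day did not overlap, as was so for 229 of the 306 tested miRNAs. On slide 1 alone, with 2 arrays at day 14 and 3 at day 9, the difference was -0.62. Both probes gave it, A_54_P4392 at -0.70 and A_54_P1511 at -0.73. The size depended on the scaling: the 75th percentile was 315, 305 and 275 intensity units on the treated day 14 arrays and 217.2, 290 and 222 on the treated day 9 arrays, and without scaling the difference was -0.40, or 0.759 of the day 9 level. The median of all 306 tested miRNAs between these days was 0.01 with the scaling used here and -0.14 with median scaling, under which miR-375-3p differed by -0.91.

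The miRNAs whose scaled signal over the 15 arrays was most like that of miR-375-3p were found by Pearson's r among the other 305 tested miRNAs. They are a description: the arrays fall into treated arrays and the rest, so that any miRNA high in treated cells scores well, and all arrays share their labelling and scaling. The median r over the 305 was 0.22 and the range -0.64 to 0.99, and 15 miRNAs had an r above 0.9. The 5 most alike were miR-23a-3p (r 0.994), miR-532-5p (0.967), miR-27a-3p (0.966), miR-199a-3p (0.963) and miR-676-3p (0.963). The mature sequences that RefSeq holds for them are given here with the seed in capitals, because they show that these miRNAs do not share one seed.
mmu-miR-23a-3p: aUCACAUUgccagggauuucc
mmu-miR-27a-3p: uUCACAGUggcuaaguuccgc
mmu-miR-199a-3p: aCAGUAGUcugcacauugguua
mmu-miR-676-3p: cCGUCCUGagguuguugagcu
miR-23a-3p and miR-27a-3p lie on the plus strand at chr8:84208563-84208583 and chr8:84208727-84208747 of GRCm38.p6 and are cut from one transcript together with miR-24-3p. miR-676-3p is encoded on chromosome X and miR-199a-3p at chr1:162217883-162217904, among other loci.

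miR-23a-3p, known from muscle and from astrocytes, had the most similar pattern. In treated day 9 cells its scaled log2 signal was -0.98, -1.01 and -1.05, and at day 14 treated cells gave -1.28, -1.43 and -1.23. Control cells gave -2.87, -2.95 and -2.96 at day 9 and -2.83, -2.75 and -2.88 at day 14, and the day 5 arrays gave -3.08, -2.95 and -2.93. Unlike miR-375-3p it was above background on all 15 arrays, so its treated arrays stood above a measured level in the other groups.

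**Figure D3:**
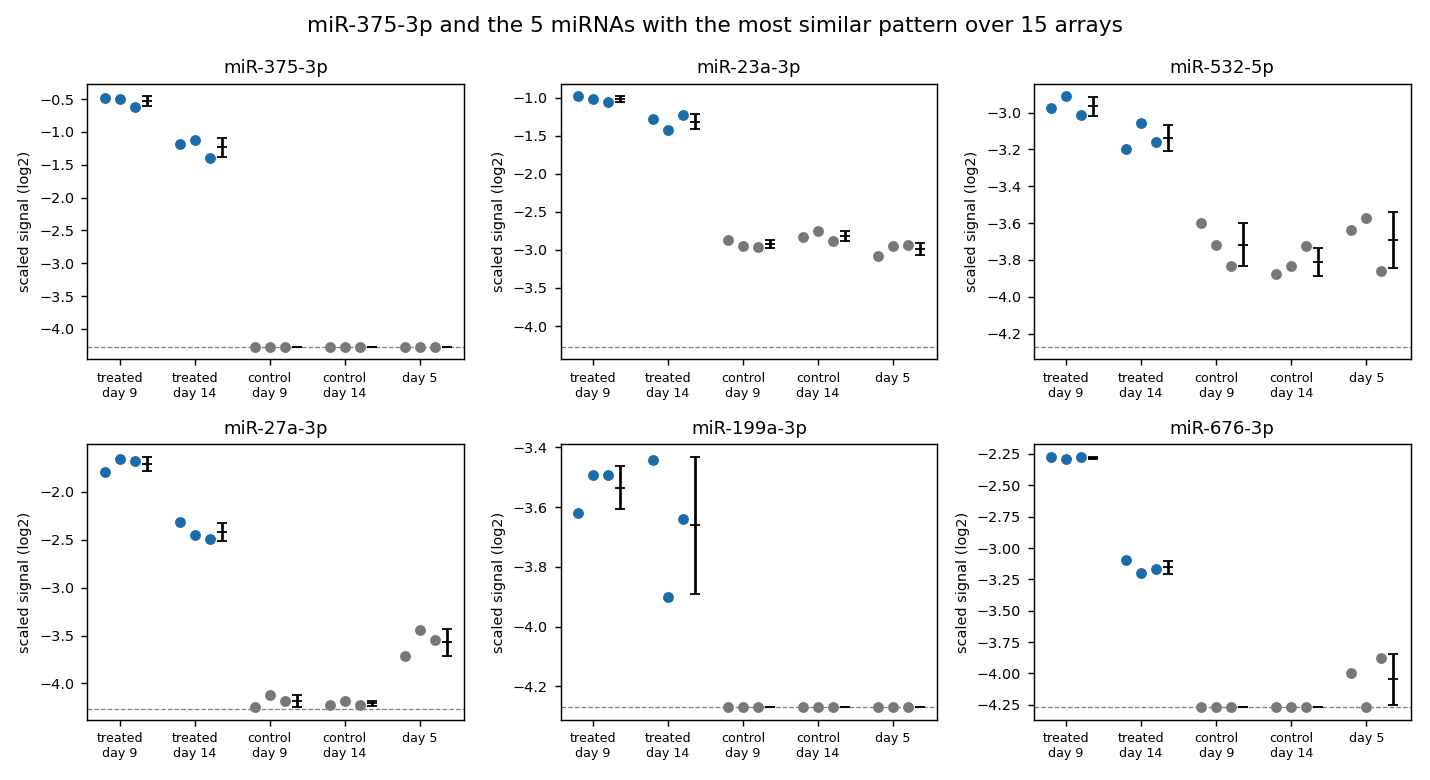
Scaled log2 signal by array for miR-375-3p and the 5 miRNAs with the highest Pearson's r to it over 15 arrays, each in a panel with its own y axis; blue points are treated arrays, grey points control and day 5 arrays, bars show mean and SD (n = 3) and the dashed line is the common floor of -4.27. In every panel the treated arrays lie above the others, and miR-375-3p is at the floor on all 9 control and day 5 arrays.

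Detection gave a stricter pattern. Of the 363 miRNAs above background on any array, 251 were above it on all 6 treated arrays. Besides miR-375-3p, 3 miRNAs were above background on all 6 treated arrays and on 0 of the other 9: miR-199a-3p, a mesenchymal miRNA, miR-210-5p, from the hairpin of the hypoxia-induced miR-210, and miR-676-3p. In treated cells miR-676-3p was at -2.28 ± 0.01 at day 9 and -3.15 ± 0.05 at day 14 (scaled log2, SD, n = 3). miR-199a-3p was at -3.54 ± 0.07 and miR-210-5p at -3.61 ± 0.15 in treated day 9 cells. In treated day 14 cells they were at -3.66 ± 0.23 and -4.18 ± 0.11, close to the floor (SD, n = 3). All 3 were below background in control and day 5 cells.

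miR-375-3p was also set beside other miRNAs known from islets and endocrine cells. The array carries 35 such miRNAs, of which 20 exceeded background at least once. Testing was possible for 18 of them, those that did so on every array of some group. Among those never above background were miR-184-3p, miR-182-5p, miR-183-5p, miR-217-5p and the 5 members of the miR-200 family on the list. In treated against control cells at day 9, 12 of the 18 rose and 3 fell (limma, adjusted p below 0.05), beside 40.5% of all 306 miRNAs that rose and 15% that fell. Their median log2 difference was 0.80, and that of all 306 was 0.25. The count includes miRNAs that passed the background filter only through the group where they are high. Of the 13 members above background on all 6 arrays compared, 9 rose and 2 fell. With other scalings 9 or 10 rose and 4 or 5 fell, the list's median was 0.24 to 0.51 and the median of all ran from -0.25 to 0.01. The list was drawn up with results of these data known, so its counts are not independent evidence. Of its tested members 3, miR-124-3p, miR-9-5p and miR-153-3p, are also on the neuron list below.

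At day 14 the same list was less one-sided. In treated against control cells 8 of 18 rose and 5 fell, beside 38.9% and 14.4% of all miRNAs, with a median of 0.24 against 0.21 for all. Of the 15 members above background on all 6 arrays compared, 7 rose and 5 fell. The list's split turned with the percentile taken over all probes, where 4 rose and 6 fell. In treated cells at day 9 against day 5, 14 of 18 rose and 0 fell, beside 37.6% and 21.2% of all miRNAs (58.8% called in all), and of the 11 above background on all 6 arrays compared 10 rose and 0 fell. In treated cells at day 14 against day 9, 5 rose and 6 fell, beside 35.3% and 30.7% of all (66% called in all), and of the 15 above background on all 6 arrays compared 4 rose and 6 fell.

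**Figure D4:**
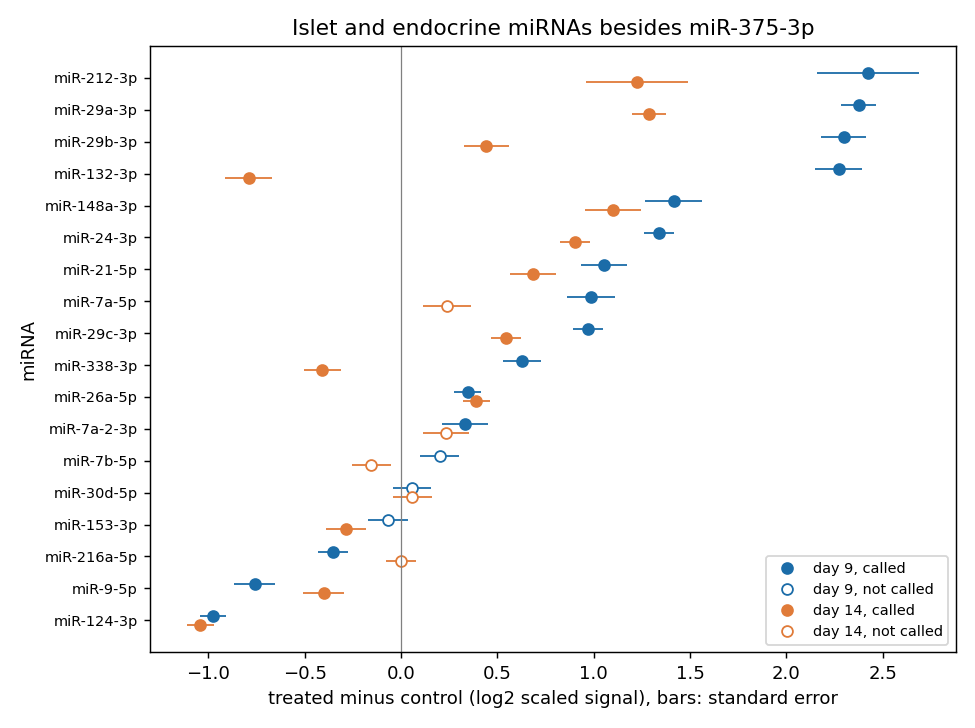
Log2 difference of treated minus control cells (x axis) for the 18 tested islet and endocrine miRNAs besides miR-375-3p at day 9 and day 14; bars are limma's standard errors and filled points were called at an adjusted p below 0.05. At day 9 the differences run from -0.97 for miR-124-3p to 2.42 for miR-212-3p, and miR-132-3p and miR-338-3p lie on opposite sides of 0 at the 2 days.

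The 3 members of the miR-29 family share the seed AGCACCA, and in islets they repress a lactate transporter that beta cells keep off. miR-29a-3p and miR-29c-3p rose at both days, and miR-29b-3p was above background on all treated and no control arrays. Their mature sequences differ outside the seed, and the bases shown after it are those that distinguish the probes' targets.
mmu-miR-29a-3p: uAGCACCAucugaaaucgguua
mmu-miR-29b-3p: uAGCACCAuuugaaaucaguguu
mmu-miR-29c-3p: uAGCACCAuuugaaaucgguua
With sequences this alike, signal on one family member's probe may include RNA of another, which was not tested. miR-29b-3p had scaled log2 signals of -1.99, -1.9995 and -1.93 in treated day 9 cells and was below background on all 3 control day 9 arrays, so it was at least 4.63-fold higher. At day 14 it was at -3.54, -3.76 and -4.18 in treated cells and again below background in controls, at least 1.31-fold higher. It entered the tested set only through the treated groups, where it is high, so no p is given for it, and at day 14 its fitted difference was 0.09 with slide as a block. miR-29a-3p rose by 2.37 (SE 0.09) at day 9, where controls were above background on 2 of 3 arrays, and by 1.29 (SE 0.09) at day 14. miR-29c-3p rose by 0.97 (SE 0.08) and 0.55 (SE 0.08), and its day 14 call ended with the percentile over all probes, quantile normalization and normexp (0.17, 0.10 and 0.11; limma, adjusted p = 0.277, 0.387 and 0.709), while with the higher floor both groups lay at the floor.

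miR-132-3p and miR-212-3p, induced by CREB and neuronal activity and known from islets too, are processed from one transcript and share the seed AACAGUC.
mmu-miR-132-3p: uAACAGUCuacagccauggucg
mmu-miR-212-3p: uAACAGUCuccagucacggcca
miR-132-3p was at -1.61, -1.70 and -1.65 in treated day 9 cells, against -3.59, -4.04 and -4.13 in control day 9 cells, higher by 2.27 (SE 0.12; limma, adjusted p = 3.49e-09). At day 14 it was at -3.01, -2.81 and -2.80 in treated cells, against -2.25, -1.97 and -2.03 in control cells, a log2 difference of -0.79 (SE 0.12; limma, adjusted p = 0.000103). miR-212-3p was higher in treated than in control cells by 2.42 (SE 0.26) at day 9. On the day 5 arrays it was at -1.08, -1.23 and -1.87. In treated day 9 against day 5 cells it was not called (0.46; limma, adjusted p = 0.157). At day 14 it was at -1.78, -1.73 and -2.85 in treated cells, against -3.60, -3.17 and -3.26 in control cells, higher by 1.23 (SE 0.26; limma, adjusted p = 0.00143). The lowest treated value came from replicate 3, which unlike the other 2 lies on slide 2. With slide as a block the difference was 0.50 (limma, adjusted p = 0.15), and there the treated side is replicate 3 alone.

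miR-7a-5p, abundant in neuroendocrine cells, was higher in treated cells at day 9 but did not pass the test at day 14.
mmu-miR-7a-5p: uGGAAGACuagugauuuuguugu
Its scaled log2 signal was -0.78, -0.79 and -0.93 in treated day 9 cells, against -1.87, -1.77 and -1.82 in control day 9 cells, a rise of 0.99 (SE 0.12; limma, adjusted p = 1.50e-05). At day 14 it was at -0.26, -0.05 and -0.45 in treated cells, against -0.69, -0.38 and -0.41 in control cells, where the groups overlapped and the difference was 0.24 (SE 0.12; limma, adjusted p = 0.131). Without treated replicate 3 the day 14 difference was 0.33 (limma, adjusted p = 0.0485). miR-7a-2-3p, from the opposite arm of a miR-7a hairpin, was above background on 2 of 3 treated day 9 arrays and on no control array, at least 1.19-fold higher at day 9. It entered the tested set only through treated day 14 cells, so no p is given, and its fitted day 9 difference was 0.33, or 0.17 with slide as a block.

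Of the other islet miRNAs, 4 rose at both days. miR-148a-3p, which supports insulin expression in beta cells, rose by 1.41 (SE 0.15) at day 9 and 1.101 (SE 0.15) at day 14. miR-24-3p, from the transcript that also carries miR-23a-3p and miR-27a-3p, rose by 1.34 (SE 0.08) and 0.90 (SE 0.08). miR-21-5p, a widely expressed miRNA linked to growth and inflammation, rose by 1.05 (SE 0.12) and 0.69 (SE 0.12). miR-26a-5p rose by 0.35 (SE 0.07) and 0.39 (SE 0.07), but at day 9 it was at -0.24 with the percentile over all probes and was not called with median scaling, quantile normalization or slide as a block (limma, adjusted p = 0.623, 0.177 and 0.056). With that scaling the day 14 calls of miR-26a-5p and miR-21-5p ended (limma, adjusted p = 0.978 and 0.104), and that of miR-26a-5p also with median scaling (0.19; limma, adjusted p = 0.107). With the scaling used here the 4 had adjusted p from 5.22e-09 to 0.000789 (limma).

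miR-124-3p, the most typical neuronal miRNA, miR-9-5p, of neural progenitors and neurons, and miR-216a-5p, of the exocrine pancreas, were the 3 members counted as lower at day 9. The log2 difference of miR-124-3p was -0.97 (SE 0.07) at day 9 and -1.04 (SE 0.07) at day 14. miR-9-5p differed by -0.76 (SE 0.11) and -0.40 (SE 0.11), and its day 14 call ended with quantile normalization (limma, adjusted p = 0.0512). miR-216a-5p was below background in treated day 9 cells and at least 1.14-fold lower there than in control day 9 cells. It entered the tested set only through control day 9 cells, where it is high, so no p is given for it. Besides miR-124-3p, miR-9-5p and miR-132-3p, those that fell at day 14 were miR-338-3p and miR-153-3p. miR-338-3p, known from beta cells and oligodendrocytes, was higher by 0.63 (SE 0.10) at day 9 and differed by -0.41 (SE 0.10) at day 14. Its day 9 call ended with slide as a block (limma, adjusted p = 0.056), quantile normalization (0.456) or the percentile over all probes (0.805). With normexp it was called at neither day (limma, adjusted p = 0.293 and 0.241). With a floor 4 times higher both groups lay at the floor at both days. miR-153-3p, a neuronal miRNA of vesicle release, differed by -0.28 (SE 0.10; limma, adjusted p = 0.0346) at day 14 and was not called there without treated replicate 3 or control replicate 2 (limma, adjusted p = 0.145 and 0.164). Its day 14 call also ended with normexp and the higher floor (limma, adjusted p = 0.105 and 0.064). At day 9 miR-153-3p was not called with the scaling used here. It was called lower there with the percentile over all probes and median scaling (-0.66 and -0.35; limma, adjusted p = 0.000195 and 0.0155). The other 2 tested members, miR-7b-5p and miR-30d-5p, did not pass the test at either day with the scaling used here. With the percentile over all probes, median scaling and quantile normalization, miR-7b-5p was called lower at day 14 (-0.53, -0.36 and -0.57; limma, adjusted p from 4.02e-05 to 0.00549). It was also called lower there without treated replicate 2 or control replicate 1 (limma, adjusted p = 0.0357 and 0.0327). With the same 3 scalings miR-30d-5p was called lower at day 9 (-0.53, -0.23 and -0.28; limma, adjusted p from 0.00172 to 0.0263).

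miRNAs of the spinal cord and motor neurons moved both ways in treated against control cells. Of 12 on the array 8 were tested. Against control 3 rose and 4 fell at day 9 (median -0.08). At day 14 4 rose and 4 fell (median -0.11), beside the shares of all miRNAs given above. In treated cells at day 9 against day 5, 7 of 8 rose and 1 fell, beside 37.6% and 21.2% of all miRNAs. The rise since day 5 was thus not limited to the islet list. In treated cells at day 14 against day 9, 5 rose and 2 fell, beside 35.3% and 30.7% of all. miR-218-5p, a miRNA that defines motor neurons, was at -0.53, -0.40 and -0.55 in treated day 9 cells, against -1.46, -1.39 and -1.34 in control day 9 cells, a rise of 0.90 (SE 0.10; limma, adjusted p = 7.09e-06). At day 14 it was at 0.37, 0.19 and 0.13 in treated cells, against -1.13, -0.97 and -1.02 in control cells, a rise of 1.27 (SE 0.10; limma, adjusted p = 2.96e-07). Treated and control arrays did not overlap at either day, as was so for 218 of all 306 miRNAs at day 9 and 171 at day 14. The treated day 14 arrays all lay above the treated day 9 arrays, the opposite order to that of miR-375-3p.

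The others that rose against control at both days were miR-27a-3p and miR-27b-3p. miR-27a-3p rose by 2.48 (SE 0.08) at day 9 and 1.79 (SE 0.08) at day 14, with controls above background on 2 of 3 arrays each. miR-27b-3p rose by 1.05 (SE 0.10) and 0.81 (SE 0.10). miR-27 is known from mouse motor neuron identity. miR-17-3p, which in mouse spinal cord represses the progenitor factor Olig2, was higher by 0.19 (SE 0.07; limma, adjusted p = 0.0379) at day 14. It was at -0.19 with the percentile over all probes, and it was not called without any 1 of the treated arrays or without control replicate 1 or 3 (limma, adjusted p from 0.0526 to 0.146). Those that fell against control at both days were miR-124-3p, miR-9-5p, miR-9-3p and miR-128-3p, all of them also neuron-list members. miR-9-3p differed by -1.03 (SE 0.13) and -1.05 (SE 0.13), and miR-128-3p by -0.21 (SE 0.08; limma, adjusted p = 0.0456) and -0.82 (SE 0.08). The day 9 call of miR-128-3p ended when any 1 of the 6 arrays was left out (limma, adjusted p from 0.0524 to 0.178). miR-196a-5p and miR-196b-5p, of the Hox clusters of the posterior body, and the muscle miRNAs miR-133a-3p and miR-206-3p were above background on 0 arrays.

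Markers of cell types that could carry miR-375-3p were read on the same arrays, and their part in its level was not tested. Of 17 miRNAs of endoderm, pancreas and gut, such as miR-122 of the liver, miR-217 of the exocrine pancreas and miR-802, 15 were above background on 0 of 15 arrays, and 0 of the 17 were so on any treated array. Of 14 epithelial miRNAs (the miR-200 family, miR-203 and miR-205), 0 exceeded background on any of the arrays. Of the 6 miRNAs of the miR-183 cluster, known from sensory and neuroendocrine cells, 1 was above background, on 0 treated arrays. Of 13 miRNAs of mesenchyme, blood and muscle, 0 were above background, among them miR-133b-3p, a muscle miRNA that has also been linked to Pitx3 in dopaminergic neurons. The mesenchymal miR-199 family is not on that list and went the other way: its miRNAs, looked up after their values were seen, were above background on treated arrays only. miR-199a-3p was so on 6 of 6 treated arrays, miR-199b-5p on 4 and miR-199a-5p on 3, and each on 0 of the other 9. miR-214-3p and miR-214-5p, from the same transcript as a miR-199a hairpin, were above background on 0 arrays.

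All 9 miRNAs of the neuron list were above background on some array. In treated against control cells 0 rose and 6 fell at day 9 (median -0.53), beside 40.5% of all miRNAs that rose and 15% that fell. Of the 6 counted as lower, miR-124-5p entered the tested set only through control day 9 cells, where it is high. Its call therefore carries no weight, and the list's median is its own value. miR-129-5p and miR-138-5p lay at the floor in both groups at day 9. In treated against control cells at day 14, 0 of the list rose and 8 fell (median -0.82), beside 38.9% and 14.4%. Of the members above background on all 6 arrays compared, 4 of 5 fell at day 9 and 8 of 8 at day 14. Examples outside the lists above are miR-137-3p, which differed by -1.33 (SE 0.13) at day 9 with 1 of 3 treated arrays above background, and miR-129-5p and miR-138-5p, which differed by -1.52 (SE 0.09) and -0.94 (SE 0.09) at day 14. All 3 treated day 9 values of miR-137-3p lay at the floor, so its difference depends on the floor. Its day 9 call ended with normexp (-0.32; limma, adjusted p = 0.0592). With a floor 4 times higher these 3 miRNAs had no difference left at the days named. The day 14 call of miR-138-5p also ended with the deposited values (-1.04; limma, adjusted p = 0.259). Against day 5, 5 of 9 were higher and 1 lower in treated day 9 cells (median 0.26), beside 37.6% and 21.2% of all miRNAs. Of the 5 members above background on all 6 arrays compared, 5 were higher and 0 lower. The 1 counted as lower was miR-124-5p, below background on all treated day 9 arrays. Of the 10 miR-302 cluster miRNAs, which mark primed pluripotent cells such as EpiSC, 5 were tested. All 5 fell in treated cells at day 9 against day 5 (median -2.19, limma, adjusted p below 0.05), beside 21.2% of all miRNAs. Of these 5, 2 were above background on all 6 arrays compared, and the other 3 on all arrays of 1 group only. miR-302a-3p and miR-302b-3p entered the tested set only through day 5 cells, where they are high, so their calls carry no weight. The earliest samples are of day 5 of differentiation, so these values do not check the label of the starting cells.

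The arrays differed by slide and in brightness. The median negative-control spot lay between -0.131 and 0.615 intensity units on slide 1 and between -1.16 and -0.866 on slide 2. The percentile over all probes ran from 3.82 to 10.2. Day 5 replicate 3 differed from its replicates by a median of 0.260 and 0.298 on the log2 scale, against 0.0713 to 0.164 for the other 13 pairs of replicates, and without it the limit for treated day 9 against day 5 was 3.48 (log2) in place of 3.38. The scaling percentile lay between 149 and 337 intensity units, 238 to 333 miRNAs were above background per array, and 0 spots were saturated. Replicates of a group correlated at 0.980 to 0.998 over the 306 miRNAs. These correlations are a description, since the labels do not say whether the replicates were separate cultures. In all, 170 of 306 miRNAs (55.6%) were called between treated and control cells at day 9 and 163 (53.3%) at day 14. The split of calls depended on scaling: 72.9% of the day 9 calls were higher in treated cells here, and 25.3% with the percentile over all probes, 45.5% with median scaling and 36.9% with quantile normalization. At day 14 these shares were 73.0%, 32.5%, 54.3% and 50%. With slide as a block 75 miRNAs were called at day 9 and 107 at day 14.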

How the data were processed

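The deposited scanner tables give spot signals in units of intensity (Cy3, background-subtracted), made by Feature Extraction 11.0.1.1 per the file headers, with no normalization between arrays. Their flags for spots above background, outliers and saturation are of another kind (other), per the file headers. The deposited value table is on the same intensity scale. Its columns have medians from -0.0248 to 0.697 and its direction and scale follow the scanner values, but treated day 14 replicate 2 repeats replicate 1 (85.7% of probes equal within 0.1%), and the pair entered that alternative as a single sample. limma 3.20.9 is named in the submitters' processing notes. The header build is mm9, and no coordinates were taken from the files.

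Spots were averaged per probe without outliers. A probe counted as above background with the scanner's flag on 50% or more of its spots. Signals were divided by each array's 75th percentile over the 353 probes above background on every array, with values below a floor set to it, at -4.27 (log2; the median over arrays of the lowest signal above background) and put on the log2 scale. The brightest probe stood for a miRNA. Of 1122 mouse miRNAs, the 306 that exceeded background on every array of some group were fitted together in 5 groups with limma 3.58.1 (R 4.3.3; 10 residual and 3.06 prior degrees of freedom), two-sided, with Benjamini-Hochberg adjustment over the 306, and called below 0.05. SE is limma's standard error. On simulated data with the day 9 design (20 simulations of 306 miRNAs), 99.5% of log2 changes of 2, 96.2% of changes of 1 and 78.0% of decreases of 0.5 were recovered.

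miR-375-3p, the 8 lists and the rule for named miRNAs were chosen with earlier results of these data known. Named were both arms of miR-375, the tested members of the islet and spinal lists, up to 3 called members of other lists, the 5 miRNAs with the highest r, and those with the same detection pattern. miRNAs sharing the seed of miR-375-3p were not analysed here. RefSeq's tables held a match for 25 of the 29 sequences sought.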

Additional observations from a re-analysis of the deposited data

Results flagged for a closer look

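Of the miRNAs named, 2 had arrays that all moved one way at day 9 and all the other way at day 14, treated against control. Among all 306 tested miRNAs, treated and control arrays did not overlap for 218 at day 9 and 171 at day 14, in either direction. How many of the 306 turned between the days was not counted. miR-132-3p differed by 2.27 at day 9 and by -0.79 at day 14 (treated minus control, log2). miR-338-3p differed by 0.63 at day 9 and by -0.41 at day 14. The difference between the days was not tested for either. With slide as a block miR-338-3p was not called at day 9 (0.50; limma, adjusted p = 0.056). With normexp it was called at neither day (0.20 and -0.24; limma, adjusted p = 0.293 and 0.241). With a floor 4 times higher it had no difference left at either day.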

How the results depend on the processing

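The limits on the excess of miR-375-3p stayed above 0 under every alternative run, and the difference of treated day 14 against treated day 9 stayed negative. As log2 limits at day 9, day 14 and day 9 against day 5, they were 3.06, 2.67 and 3.21 with the percentile over all probes, 3.37, 2.75 and 3.30 with median scaling, and 3.29 and 2.65 with quantile normalization (treated against control only). They were 1.68, 1.15 and 1.40 with normexp background, 1.74, 1.03 and 1.74 with a floor 4 times higher, 3.38, 2.69 and 3.10 with the mean of the probes, and 3.10, 2.40 and 2.83 with probe A_54_P1511 alone. With slide as a block they were 3.41 and 2.82 (treated against control), the slide term resting on the treated day 14 arrays alone. Without scaling between arrays, an alternative chosen after seeing the data, they were 3.25 at day 14 and 3.67 for day 9 against day 5. Treated day 14 against treated day 9 was -0.91 with median scaling, -0.53 with normexp and -0.40 without scaling. Leaving out 1 array gave 3.61 to 3.72, 2.93 to 3.06, 3.198 to 3.48 and -0.76 to -0.62 in the 4 comparisons.

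Of the 306 tested miRNAs, 55.6%, 53.3%, 58.8% and 66% were called in the 4 comparisons, and 27.1%, 22.9%, 34.6% and 43.5% with normexp. With a floor 4 times higher 31%, 30.4% and 43.5% were called (treated against control at day 9 and day 14, and treated day 14 against day 9). With slide as a block 24.5% and 35% were called against control. When only miRNAs above background on all 15 arrays were tested, fewer were tested and called in all 4 comparisons, and 54.7%, 59.9%, 61.5% and 70.8% of those tested were called. Leaving out 1 array gave 48.7% to 52.3%, 47.4% to 53.9%, 53.3% to 64.4% and 61.8% to 64.1%. With a floor 4 times higher 8 islet miRNAs were called at day 14, and 3 and 5 neuronal ones at day 9 and day 14; with normexp 3 neuronal ones were called at day 9. Raising the floor leaves dim miRNAs with no difference to test.

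Directions turned, treated against control, for miR-30d-5p at day 9 (-0.53, -0.23 and -0.28 with the all-probe percentile, median scaling and quantile normalization) and for miR-17-3p (-0.54, -0.24 and -0.28 at day 9; -0.19, -0.018 and -0.14 at day 14). miR-26a-5p was at -0.24 at day 9 with the all-probe percentile and miR-29b-3p at -0.045 at day 14 with normexp; the cause was not tested. Of the remaining values of named results, 809 stayed on their side of the threshold with no called change of direction, 68 kept their direction and lost the call, and 8 kept it and gained a call.

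After group means were taken out, same-numbered samples of different groups correlated at -0.28 to 0.53. Differently numbered samples were not compared, so whether the numbers pair the samples was not settled. With the number as a replicate block, 55.6%, 51.3%, 58.2% and 65.4% of miRNAs were called. Each group holds replicates 1, 2 and 3, so this block cannot change any difference between groups, that of miR-375-3p included. Single calls against control were followed for the tested islet and spinal miRNAs, miR-129-5p, miR-137-3p and miR-138-5p. Among these, only the calls of miR-17-3p at day 14 (adjusted p = 0.056) and miR-128-3p at day 9 (adjusted p = 0.0528, limma) ended. Spots near background limit what can be said of control and day 5 cells, and 3 arrays per group limit the precision.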
